A study of Mus musculus with 2 samples.

Results

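Deep dermal fibroblasts of embryonic mouse skin were taken as the dermal cells that carried little Crabp1 and at least some RNA of the matrix genes Dcn, Col14a1 and Abi3bp. The rule kept 4593 cells of 25475 barcodes, 3224 in the library titled control and 1369 in the library titled mutant. A member had at least 1000 detected genes, at most 10% mitochondrial UMIs (unique molecular identifiers, each standing for 1 captured RNA molecule) and less than 5% hemoglobin UMIs. It had at least 10 UMIs of Col1a1, Col1a2 and Col3a1 together, at most 5 of Krt5, Krt14 and Krt15, and 0 of Myod1, Pax7, Cdh5, Ptprc and Sox10. Among these gated dermal cells, members had at least 3 UMIs of Dcn, Col14a1 and Abi3bp, Crabp1 below 0.05% of UMIs, and at most 2 UMIs of Ptch1 and Hhip. Members were thus chosen by measured levels of these 17 genes, so their levels are a description and support nothing.

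In embryonic skin the upper dermis lies under the epidermis, answers to epidermal Wnt signals and later forms the hair follicle dermal condensate and papilla. The deeper dermis and the fascia below it build a looser matrix of fibrillar collagen, decorin and collagen XIV, and give rise to reticular fibroblasts and adipocyte precursors. Hedgehog ligand acts through Patched receptors and Smoothened on the GLI transcription factors. Ptch1, Hhip and Gli1 are themselves targets of the pathway, so their RNA is the usual readout of a cell that is responding.

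Both libraries were made from dorsolateral flank skin of E13.5 littermates, with 2 to 3 embryos pooled after genotyping. The cross combined Axin2CreER, a recombinase that tamoxifen switches on where the Wnt target Axin2 is transcribed, with Rosa-lox-STOP-lox-SmoM2YFP, whose recombined allele encodes Smoothened locked in its active state and tagged with YFP. The title of the control library names SmoM2YFP alone, and that of the mutant library names a dermal SmoM2YFP mutant. The genotype entry of each library contradicts its title, since the library titled control is entered as SmoM2 MUT and the library titled mutant as SmoM2 WT. Groups follow the titles, and the reporter transcript was counted at 14.4 CPM (counts per 1000000 UMIs) of eYFP in mutant members and 0.442 CPM in control members. Timing and dose of tamoxifen are not given in the sources used here. The driver acts in Wnt-responding cells, so a deep cell of the mutant library need not have recombined.

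Each group had 1 library. No difference between the groups therefore has a replicate check, no p-value is given, and every interval is a 95% interval for counting error only. Members carried 22622216 UMIs in the control and 7572339 in the mutant library, with a median of 6555 and 5114 UMIs per cell. The libraries shared 48 barcodes, and 1 of these was a member in both. UMIs of all members were summed per library and scaled to a total of 1000000. A gene was counted as higher or lower when the ratio of CPM, with 5 CPM added to both values, reached 1.5 and the gene had 20 CPM or more on at least 1 side. The libraries differed in red cell RNA counted in dermal cells. The 9 erythroid markers summed to 156 CPM in control and 994 CPM in mutant members, and to 151 and 975.2 CPM in the Crabp1-high dermal cells. Whether this RNA was free in the suspension was not tested.

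Members made up 38.1% (37.0 to 39.1) of 8467 gated dermal cells in the control library and 32.05% (30.6 to 33.5) of 4272 in the mutant library. This order rested on the Ptch1 and Hhip limit. That limit removed 1 control cell and 623 mutant cells, the latter being 31.3% (29.2 to 33.4) of the 1992 mutant cells that met the rest of the rule. Without it the shares were 38.1% and 46.6%, and with all cells thinned to 3000 UMIs before the rule they were 43.2% and 48.1%. No direction of the share of deep cells is read from these values.

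The label was described with 3 of its marker genes that the rule did not use. Members and gene lists were chosen with earlier results of these data known, so these values are no independent check. Ptn, which encodes the heparin-binding growth factor pleiotrophin, reached 5756 CPM in control and 5821 CPM in mutant members, against 898 and 1348 CPM in Crabp1-high dermal cells. Klf4, a zinc-finger transcription factor, stood at 192 and 234 CPM in members against 22.6 and 56.0 CPM in Crabp1-high cells. Ccn3, a matricellular protein, stood at 79.7 and 138 CPM against 7.65 and 19.1 CPM. All 3 genes were thus higher in members than in Crabp1-high cells of the same library. The name fascia had less behind it. Dpp4, a surface marker of later fascial progenitors, had 53 UMIs in all control and 26 in all mutant members, Pi16 had 45 and 18, and 9 of 17 genes of the fascia progenitor list stayed below 20 CPM in both libraries.

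**Figure D1:**
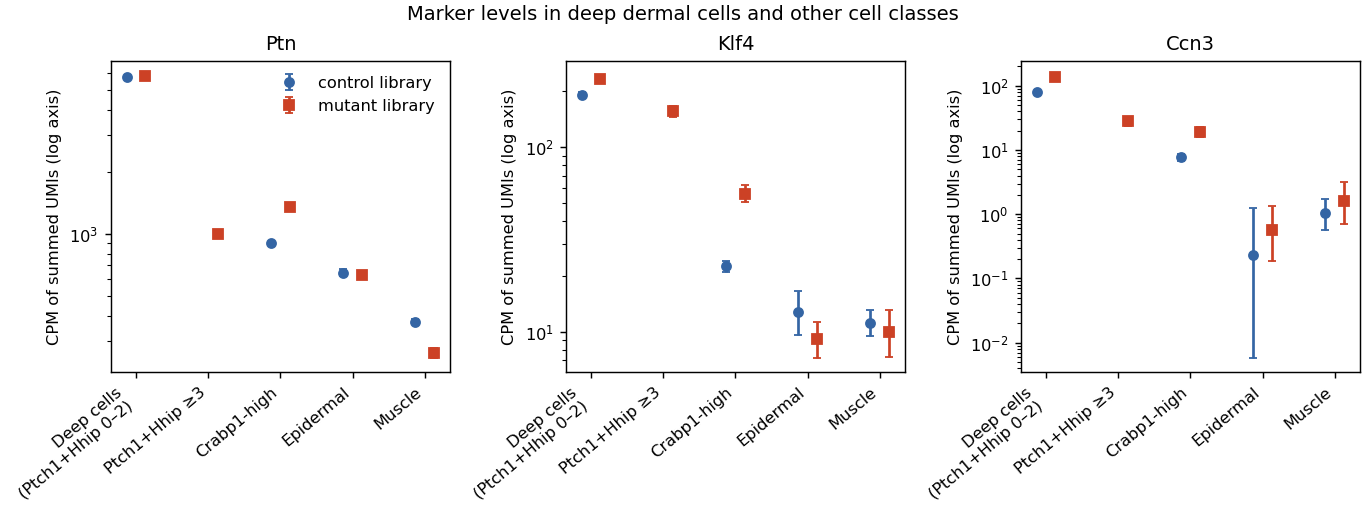
Levels of Ptn, Klf4 and Ccn3 (CPM of UMIs summed per class, log axis) in deep cells, in Crabp1-low cells above the Ptch1 and Hhip limit (mutant library only), and in Crabp1-high dermal, epidermal and muscle cells. Circles are the control and squares the mutant library, bars are exact Poisson intervals, and deep cells hold the highest value in all 3 panels.

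Markers of epidermal and muscle cells were scarce in members beside those cells, and the other lists are given without a reference class. Summed over each marker list, control and mutant members held 36.2 and 44.8 CPM of 10 epidermal genes, 53.3 and 44.1 CPM of 10 muscle genes, and 17.9 and 28.0 CPM of 8 endothelial genes. Epidermal cells of the same libraries held 3491 and 4355 CPM of the epidermal list, and muscle cells 5361 and 6704 CPM of the muscle list. The rule limited Krt5, Krt14 and Krt15 in members and set Myod1, Pax7 and Cdh5 to 0, and these genes are in the lists. Epidermal cells were chosen by at least 20 UMIs of the same keratins, and muscle cells by at least 2 of Myod1 and Pax7. Part of these differences was thus fixed in advance. Glial, chondrocyte and mesothelial lists summed to between 0.924 and 14.5 CPM, with Sox10 at 0 by the rule. The 7 mural genes summed to 88.3 and 92.6 CPM, of which Kcnj8, a potassium channel subunit of pericytes, gave 45.9 and 47.0 CPM. The leukocyte list summed to 33.3 and 69.2 CPM, with Ptprc at 0 by the rule.

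Cells on both sides of the Crabp1 and matrix gene limits were compared by Ptn, which was lower just outside than just inside. Control members with Crabp1 between 0.03% and 0.05% of UMIs held 4451 CPM of Ptn, and the 336 control cells between 0.05% and 0.07%, outside the rule, held 3085 CPM. The 1619 control members with no Crabp1 UMI held 6780 CPM. Along the matrix gene limit, 196 control members with 3 to 4 UMIs held 5372 CPM of Ptn, and 152 cells with 1 to 2 UMIs, outside the rule, held 4357 CPM. In the mutant library the pairs of values were 3338 and 2652 CPM at the Crabp1 limit and 3956 and 3137 CPM at the matrix gene limit.

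The layer was then described against Crabp1-high dermal cells of the same library, which numbered 5008 and 1048 and met the same gate and Ptch1 and Hhip limit. Because the rule drew this line, the counts are a description from which nothing is read. In the control library 425 of 6023 genes (7.06%) were higher in deep cells and 452 (7.5%) lower, and in the mutant library 386 of 5933 (6.51%) were higher and 210 (3.54%) lower. Past 1.5-fold the same way in both libraries were 268 genes higher and 132 genes lower of 5673 tested in both. Among those 5673 genes, 382 in the control and 353 in the mutant library were higher, of which the 268 were 70.2% and 75.9%. On the lower side 374 and 176 were past the threshold, of which the 132 were 35.3% and 75%.

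Among the genes farthest up in both libraries were components of the matrix. Mfap5, a component of elastic microfibrils, was at 29.7 against 2.25 CPM in the control and 66.7 against 7.38 CPM in the mutant library. Dpt, which encodes the matrix protein dermatopontin, was at 93.2 against 12.9 CPM and 62.9 against 9.19 CPM. Itm2a, a transmembrane protein, was at 1043 against 167 CPM and 1211 against 225 CPM. Prss23, Clu, Nrk, Arhgap20 and the transcription factors Dmrt2 and Zfhx3 completed the list with Ccn3, Kcnj8 and Ptn, at 4.32- to 13.2-fold in 1 library or the other. Of 17 elastic fibre and microfibril genes measured in the control library 8 were higher in deep cells (Fbn1, Mfap5, Fbln2, Fbln5, Efemp2, Ltbp1, Lox and Loxl1) and Fbln1 was lower, with a median log2 ratio of 0.54 beside −0.05 over all genes tested.

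The lower side held genes of the Wnt-responding upper dermis. Lef1, a nuclear partner of beta-catenin, was at 3.36 against 41.6 CPM in the control and 4.36 against 60.4 CPM in the mutant library. Sp5, a direct Wnt target, was at 2.48 against 75.04 CPM and 1.85 against 31.5 CPM. Nrgn, a calmodulin-binding protein, was at 13.4 against 561 CPM and 6.87 against 104 CPM, a 41.7-fold (37.3 to 46.9) and a 15.2-fold (11.4 to 20.5) difference. Casz1, a zinc-finger transcription factor, was at 1.19 against 95.9 CPM in the control and had 1 UMI against 139 in the mutant library, a ratio of 159 (28.0 to 6305). Lix1, Runx3, Ass1, Pakap, Irx3, Irx5, Col7a1 and Bcl11b were the other genes farthest down in both libraries. Among 12 Wnt target genes measured in the control library, 9 were lower in deep cells, Dkk2 was higher, and the median log2 ratio was −1.67.

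**Figure D2:**
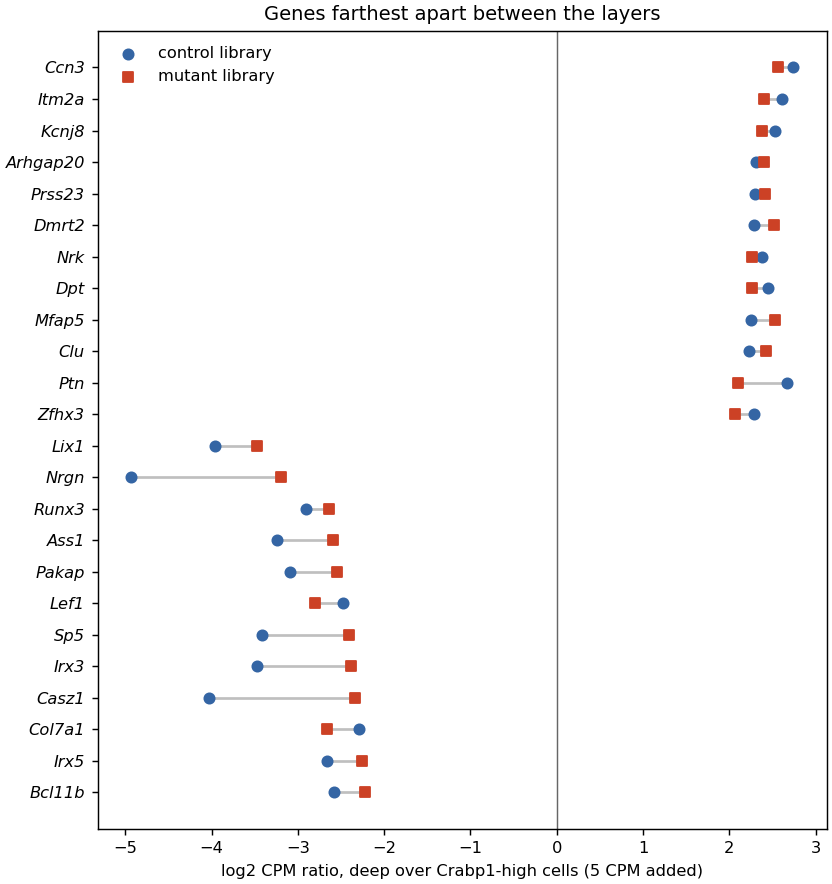
log2 CPM ratios (5 CPM added) of deep over Crabp1-high cells for the 12 genes farthest up and the 12 farthest down in both libraries, circles for the control and squares for the mutant library. The 12 genes on the right lie above 2 in both libraries, and Nrgn and Casz1 show the widest gaps between libraries on the left.

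Part of the IGF and adipogenic lists was higher in deep cells of the control library as well. The IGF list summed to 3800 CPM in deep against 1979 CPM in Crabp1-high cells there, and to 3336 against 2252 CPM in the mutant library. The adipogenic list summed to 3576 against 1335 CPM in the control and 3520 against 1700 CPM in the mutant library. In all, 7 of 10 measured genes of the insulin-like growth factor (IGF) list were higher in control deep cells, among them Igf1 (329 against 52.4 CPM) and Igf2 (745 against 341 CPM). Of 8 measured adipogenic genes Ebf1, Ebf3, Dlk1 and Gata6 were higher, with Ebf1 at 249 against 57.3 CPM and Dlk1, an inhibitor of adipocyte differentiation, at 3004 against 1107 CPM. Sox9 and Col11a1, which also mark cartilage precursors, were higher at 45.1 against 6.78 CPM and 75.5 against 11.5 CPM, while the 5 chondrocyte markers summed to 4.46 CPM in control members. Fgf7, a growth factor for epithelium, was at 84.7 against 12.9 CPM and Wnt2 at 67.1 against 11.7 CPM. All 20 genes of the G2 and M phase list were lower in control deep cells, with a median log2 ratio of −0.93. In the mutant library 2 of 20, Cenpf and Bub1, were lower and the median was −0.32.

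Members differed among themselves most plainly in Ptn. After each cell was thinned to 3000 UMIs, leaving out 108 control and 137 mutant members below that depth, the control members had a median of 15 Ptn UMIs with quartiles at 6 and 26 and a maximum of 104. Cells with 0 to 4 Ptn UMIs made up 17.2% of control members, and cells with at least 25 made up 28.0%. From the lowest to the highest Ptn range the level of Ccn3 went from 20.5 to 47.2, 95.03 and 159 CPM, that of Mfap5 from 8.71 to 16.2, 33.9 and 48.9 CPM, and that of Gata6 from 29.9 to 46.2, 73.5 and 159 CPM. Aspn, a small leucine-rich proteoglycan of mid dermis and tendon, ran the other way, from 206 to 178, 55.4 and 46.3 CPM. Ogn changed less, at 262, 237, 214 and 222 CPM. Control members thus spanned a range with Ptn, Ccn3, Mfap5 and Gata6 at its upper end and Aspn at its lower end, and these ranges were cut from a measured level. In the mutant library Ccn3, Mfap5 and Gata6 also rose over the Ptn ranges. Aspn did not fall there, at 28.1, 48.1, 46.7 and 29.2 CPM, and Ogn went from 97.7 to 254 CPM.

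Some members held RNA of tendon genes. In the control library 145 thinned members held a UMI of Tnmd or Scx, genes of tendon cells, and in them Aspn stood at 389 CPM and Gata6 at 18.4 CPM. In the mutant library 59 such cells held 96.0 CPM of Aspn and 16.9 CPM of Gata6. Over all members Tnmd was higher in the mutant library, at 9.77 and 23.0 CPM, and Scx, at 11.9 and 3.43 CPM, was under the level for a call. Neither set of cells was clustered or named as a cell type.

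The mutant members were further divided by their Ptch1 and Hhip UMIs, a split made after the values had been seen. Of 1369 mutant members 1034 had 0 such UMIs, 182 had 1 and 153 had 2, and the cells outside the rule comprised 256 with 3 to 4 and 367 with at least 5. Median depth rose along these classes, from 4827.5 to 6137.5, 6661, 7098 and 8581 UMIs per cell. Of the control members 3112 had 0 such UMIs, 105 had 1 and 7 had 2.

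Genes of the deep layer fell away along this division in the mutant library. Ptn stood at 7344, 2794, 1559, 1208 and 866 CPM from the class with 0 UMIs to that with at least 5. Itm2a stood at 1508, 649, 352, 282 and 231 CPM, and Ccn3 at 165, 98.0, 43.6, 26.6 and 28.9 CPM. Mfap5 went from 84.2 CPM at 0 UMIs to 10.2 CPM at 2. Gata6, a transcription factor, went from 68.5 to 21.3 CPM over the same step. In every one of these 5 genes the class with 0 UMIs was the highest. Klf4 fell less, at 272, 170, 114, 145 and 162 CPM.

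Other genes rose along the same division. Dkk1, a secreted inhibitor of Wnt co-receptors, stood at 19.1, 144, 252, 226 and 280 CPM. Foxd1, a forkhead factor found in dermal condensates, stood at 3.94, 18.0, 32.5, 52.1 and 58.9 CPM. Gli1, the transcriptional effector and target of Hedgehog signalling, stood at 3.38, 27.5, 39.9, 34.9 and 57.1 CPM. The eYFP reporter stood at 3.56, 36.1, 44.5, 42.7 and 37.9 CPM. The step from 0 to 1 UMI was the largest for eYFP, whose later values overlapped within their intervals.

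The same division of the control library gave other values for some genes and like ones for others. Control members with 1 UMI held 4915 CPM of Ptn against 5798 CPM at 0 UMIs, 56.6 against 81.0 CPM of Ccn3, 36.4 against 29.4 CPM of Mfap5, and 3.03 against 2.18 CPM of Dkk1. They held 132 against 195 CPM of Klf4, 758 against 1058 CPM of Itm2a and 5.06 against 1.44 CPM of Gli1. Every one of these genes except Mfap5 moved in the direction seen in the mutant library. Gata6, Foxd1 and eYFP, which were also followed in the mutant library, did not. Control members with 1 UMI held 83.9 against 76.97 CPM of Gata6, which went from 68.5 to 21.5 CPM in mutant members. They held 0 against 0.788 CPM of Foxd1 and 0 against 0.464 CPM of eYFP, both of few UMIs. The steps of Ptn and Dkk1 were smaller than in mutant members, where Ptn went from 7344 to 2794 CPM and Dkk1 from 19.1 to 144 CPM. Counted over all genes, 115 of 5988 (1.92%) were higher and 63 (1.05%) lower in the 112 control members with 1 to 2 UMIs than in those with 0. In the mutant library 185 of 5952 (3.11%) were higher and 377 (6.33%) lower. The rule used Ptch1 and Hhip, the difference between the libraries was not tested, and the 112 control cells are fewer than the 335 mutant cells of the same range.

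The readout was also taken at equal depth, with the classes still set by the full counts and so still differing in depth. After thinning to 3000 UMIs the median cell had 21 Ptn UMIs in the 913 mutant members with 0 Ptch1 and Hhip UMIs, 3 in the 319 with 1 to 2, and 1 in the 621 cells outside the limit. The corresponding medians in control members were 15 and 14. A Dkk1 UMI was found in 3.29% (2.23 to 4.66), 31.0% (26 to 36.4) and 43.3% (39.4 to 47.3) of these mutant classes, against 1.49% (0.602 to 3.05) of mutant muscle cells thinned alike. An eYFP UMI was found in 1.64% (0.922 to 2.70), 10.0% (6.96 to 13.9) and 12.9% (10.3 to 15.8), against 0.640% (0.132 to 1.86) of mutant muscle and 0.103% (0.00260 to 0.571) of mutant epidermal cells. The interval of the class with 0 UMIs overlapped that of muscle cells, and their eYFP levels were 3.56 and 2.63 CPM. It did not overlap that of mutant epidermal cells, which held 0.461 CPM of eYFP. Before thinning, eYFP was found in 1.64%, 22.1% and 27.3% of cells of the 3 classes and Dkk1 in 5.13%, 44.2% and 67.1%. A cell with 0 UMIs of Ptch1 and Hhip at this depth can still have expressed them.

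**Figure D3:**
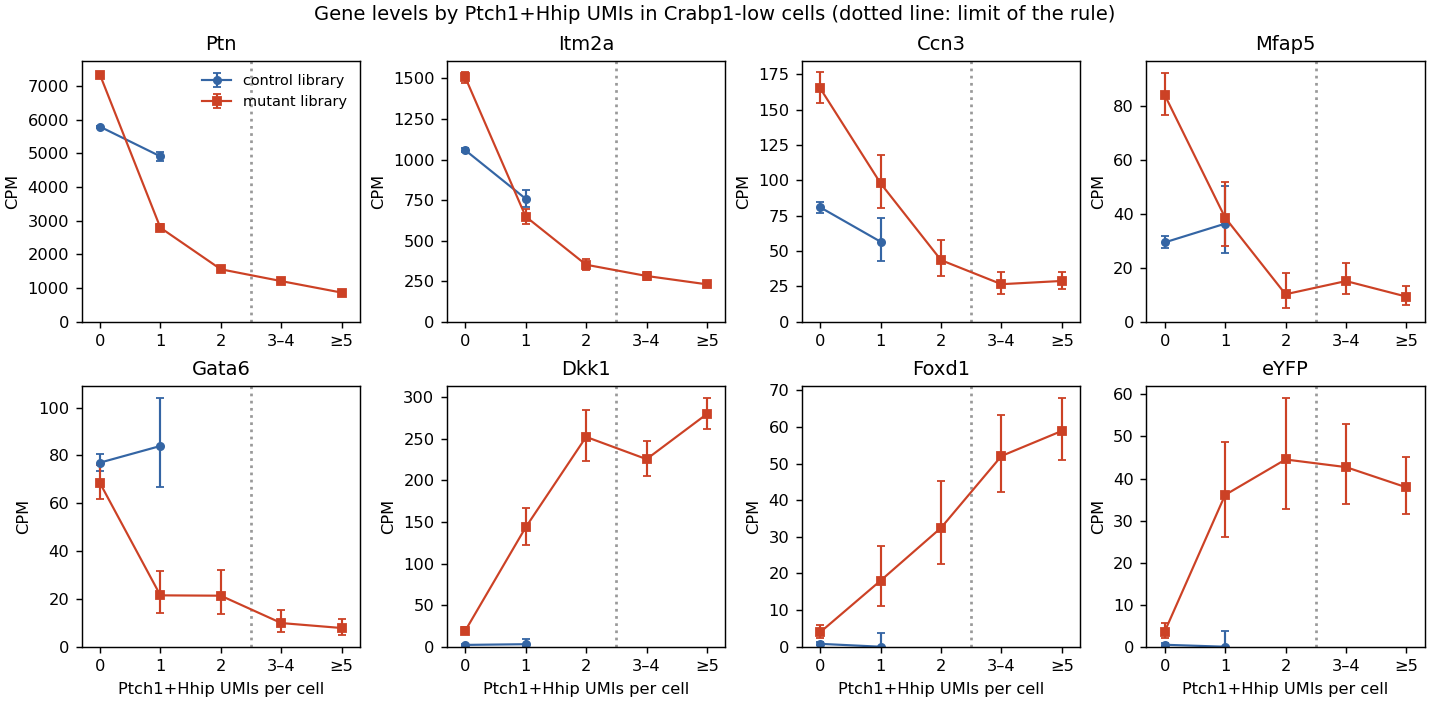
CPM of 8 genes in Crabp1-low cells, by the Ptch1 plus Hhip UMIs of each cell, for the control (circles; 0 and 1 UMI only) and the mutant library (squares); bars are exact Poisson intervals, and the dotted line is the limit of the rule. Ptn, Itm2a, Ccn3, Mfap5 and Gata6 are highest at 0 UMIs in the mutant library, and Dkk1, Foxd1 and eYFP are lowest there.

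**Figure D4:**
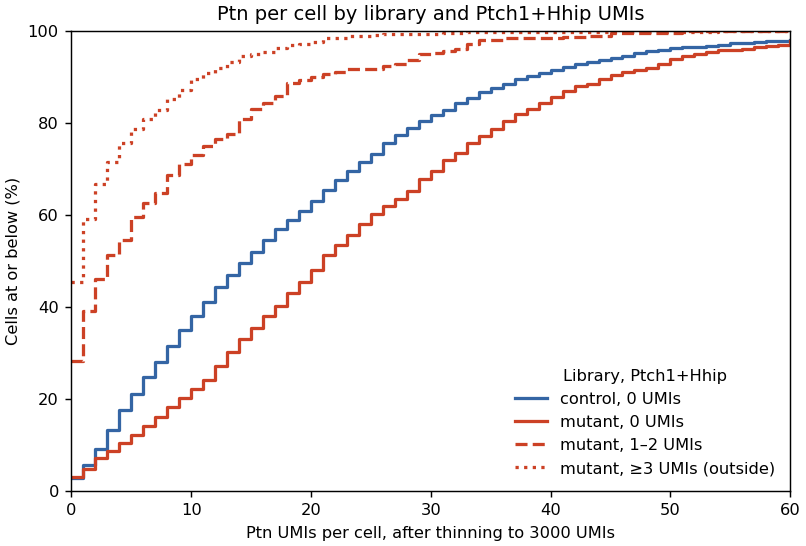
Cumulative share of cells (%) by Ptn UMIs per cell after thinning to 3000 UMIs, for control and mutant members with 0 Ptch1 and Hhip UMIs, mutant members with 1 to 2, and mutant cells outside the limit with at least 3. The mutant curve at 0 UMIs lies to the right of the control curve over most of its length, with medians of 21 and 15, and both other curves lie to the left.

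Mutant cells outside the limit carried a profile apart from that of the members. Above against within the limit, 244 of 5953 genes (4.1%) were higher and 358 (6.01%) lower, counts from which nothing is read because the limit drew the line. Foxd1 (56.4 against 10.2 CPM), Pdlim3, a PDZ and LIM domain protein (56.0 against 9.38 CPM), and Penk, a neuropeptide precursor (123 against 29.98 CPM), were among the 6 highest, with Gm5084, Nap1l5 and Ly75. Ptn (991 against 5821 CPM), Igfbp5 (40.2 against 208 CPM) and the cell adhesion gene Opcml (4.38 against 46.4 CPM) were among the 6 lowest, with Clu, Itm2a and Gata6. Of 17 measured elastic fibre genes 10 were lower above the limit, and none was higher. The 6 marker genes of the label summed to 8577 CPM in mutant members and 2437 CPM above the limit, beside 2454 CPM in mutant Crabp1-high cells.

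The comparison of mutant with control members gives what differs between the deep cells of the libraries. With 1 library per group, an effect of active Smoothened cannot be told apart from other differences between the libraries. Few genes were past the threshold: 115 of 5893 (1.95%) were higher in the mutant and 84 (1.43%) lower. In Crabp1-high dermal cells 207 of 5853 (3.54%) were higher and 196 (3.35%) lower, and these groups hold other numbers of cells and UMIs. With members limited to 0 Ptch1 and Hhip UMIs in both libraries, 127 of 5926 genes (2.14%) were higher and 77 (1.3%) lower. Mutant members with 1 to 2 such UMIs, set against all control members, gave 382 of 5965 genes higher (6.4%) and 373 lower (6.25%), an alternative chosen after seeing the data. With the cells above the limit added, 276 of 5942 genes (4.64%) were higher and 160 (2.69%) lower. The pooled value of each gene below is therefore given with that of the mutant members at 0 UMIs where it moves by more than 1.5 times. The value at 0 UMIs is also given for some genes that move less, such as those then within the threshold.

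Of 6 measured secreted Wnt inhibitors Dkk1 was higher and Sfrp2 lower, and of 6 measured Wnt ligands and R-spondins Rspo1 was lower, with list medians of −0.21 and −0.03. Dkk1 stood at 2.21 CPM in control and 71.4 CPM in mutant members, a ratio of 32.3 (24.2 to 44.1), and at 19.1 CPM in the mutant members with 0 UMIs, a ratio of 8.78 (6.16 to 12.7) but under the level for a call. Rspo1, a secreted amplifier of Wnt signalling, stood at 56.4 CPM in control and 14.4 CPM in mutant members, 3.92-fold (3.22 to 4.81) lower. In Crabp1-high cells Rspo1 went from 133 to 36.9 CPM. Dact1, an intracellular Wnt modulator, stood at 14.4 and 46.7 CPM. Sfrp2, another secreted Wnt inhibitor, was 1.52-fold (1.45 to 1.59) lower, at 452 and 297 CPM, and within the threshold at 0 UMIs (367 CPM). Axin2, the Wnt target whose locus drives the recombinase, stood at 23.4 and 35.1 CPM, within the threshold.

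Genes of 3 IGF binding proteins were lower, and those of the ligands were within the threshold. Igfbp5 stood at 469 CPM in control and 208 CPM in mutant members, 2.25-fold (2.14 to 2.38) lower. Igfbp2, its neighbour on chromosome 1 (72824503 to 72852474 and 72857932 to 72874884 for Igfbp2 and Igfbp5, GRCm38), stood at 109 and 40.5 CPM, 2.68-fold (2.38 to 3.03) lower. Igfbp3 stood at 124 and 80.6 CPM, and was within the threshold at 0 UMIs (84.8 CPM). Igf1 was at 329 and 338 CPM, and Igf2 at 745 and 743 CPM. Of 10 measured IGF genes 3 were lower and 0 higher, with a median log2 ratio of −0.05 beside 0.04 over all genes. Igfbp5 was also lower in Crabp1-high cells, at 505 and 174 CPM. Epidermal cells went the other way: a UMI of Igfbp5 was found in 22.9% of control and 53.9% of mutant epidermal cells after thinning.

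Of 6 measured smooth muscle type contractile genes 3 were higher. Tagln, which encodes the actin-binding transgelin, stood at 97.9 CPM in control and 309 CPM in mutant members, a ratio of 3.16 (2.98 to 3.35), and at 264 CPM in the mutant members with 0 UMIs. Tagln2 stood at 59.8 and 173 CPM, a ratio of 2.89 (2.68 to 3.13), and at 108 CPM at 0 UMIs, a ratio of 1.85 (1.67 to 2.04). Acta2, the smooth muscle actin, stood at 237 and 479 CPM, and Myl9, a myosin light chain, at 144 and 244 CPM, though within the threshold at 0 UMIs (212 CPM). Acta2, Tagln and Myl9 were the 3 higher genes, none was lower, and the median log2 ratio of the list was 0.55. A UMI of Tagln was found in 16.7% (15.4 to 18.0) of thinned control and 39.9% (37.2 to 42.7) of thinned mutant members. The muscle marker list summed to 44.1 CPM in mutant and 53.3 CPM in control members, and the mural list to 92.6 and 88.3 CPM; their part in the difference was not tested.

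Patterning genes that were past the threshold were mostly lower. Irx1 and Irx2, homeobox genes of 1 cluster on chromosome 13, stood at 89.3 and 40.9 CPM and at 35.8 and 14.9 CPM in control and mutant members. Irx5 stood at 25.4 and 12.3 CPM. The divergent neighbours Pantr1, a long noncoding RNA, and Pou3f3, a POU homeobox gene (chromosome 1, 42590782 to 42694842 and 42695768 to 42703176), stood at 42.7 and 16.5 CPM and at 24.4 and 10.2 CPM. Foxp1 and Foxp2, forkhead repressors, stood at 61.5 and 34.2 CPM and at 23.96 and 12.4 CPM, lower in the pooled members and within the threshold at 0 UMIs (40.1 and 14.4 CPM). Meox2, a mesenchyme homeobox gene, was higher, at 30.4 and 68.8 CPM. Of 19 measured patterning transcription factors 4 were lower and 1 higher, with a median log2 ratio of −0.18.

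Hox genes past the threshold were lower and came from the Hoxc cluster. Hoxc4 stood at 26.6 and 15.3 CPM, Hoxc5 at 29.6 and 14.9 CPM, and Hoxc6 at 58.2 and 32.9 CPM. Of 21 Hox genes listed 6 were measured, 0 were higher, and their median log2 ratio was −0.46. In Crabp1-high cells 4 of 9 measured Hox genes were lower, Hoxa7, Hoxa9, Hoxc8 and Hoxc10, with a median of −0.50.

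Matrix and guidance lists held few genes past the threshold. Aspn stood at 116 CPM in control and 40.5 CPM in mutant members, 2.87-fold (2.55 to 3.24) lower, and a UMI of Aspn or Ogn was found in 52.0% (50.2 to 53.8) and 40.2% (37.4 to 43.0) of thinned members. Aspn was the 1 gene past the threshold of 4 measured small leucine-rich proteoglycans, of which 0 had a ratio above 1 (median log2 ratio −0.32). The microfibril gene Mfap4 (311 and 167 CPM) and the fibulin Efemp1 (47.3 and 24.2 CPM) were lower, and Mfap5 (29.7 and 66.7 CPM) was higher. Of 17 measured elastic fibre genes these 3 were past the threshold, and the median log2 ratio was 0.03. Among 12 measured collagens Col6a3 was higher (108 and 167 CPM) and Col8a1 lower (33.6 and 19.3 CPM). Epha5, an ephrin receptor, stood at 23.0 and 6.34 CPM, and Ntng1, an axon guidance protein, at 35.5 and 13.6 CPM. Hs3st1, a heparan sulfate sulfotransferase, stood at 21.1 and 8.72 CPM.

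Levels of the deep-layer markers followed the split by Ptch1 and Hhip UMIs, so their values in mutant members with 0 such UMIs are a description from which nothing is read. Ptn stood at 5756 CPM in control and 5821 CPM in mutant members, and at 7344 CPM in mutant members with 0 UMIs. Ccn3 stood at 79.7 and 138 CPM, a ratio of 1.73 (1.60 to 1.86), and at 165 CPM at 0 UMIs. Cdh4, a cadherin, stood at 7.16 and 29.4 CPM, and at 36.4 CPM at 0 UMIs. Prss23 stood at 32.6 and 85.3 CPM. Of 3 label genes outside the rule Ccn3 was higher, and Ptn and Klf4 stayed within the threshold. Of 8 measured fascia progenitor genes Mfap5 and Anxa3 were higher and none lower, with a median log2 ratio of 0.04. Of 9 measured adipogenic genes none was past the threshold, with a median of 0.33. At 0 UMIs Ebf2, Ebf3 and Cebpd, transcription factors of adipocyte precursors, were past it, with a list median of 0.49.

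**Figure D5:**
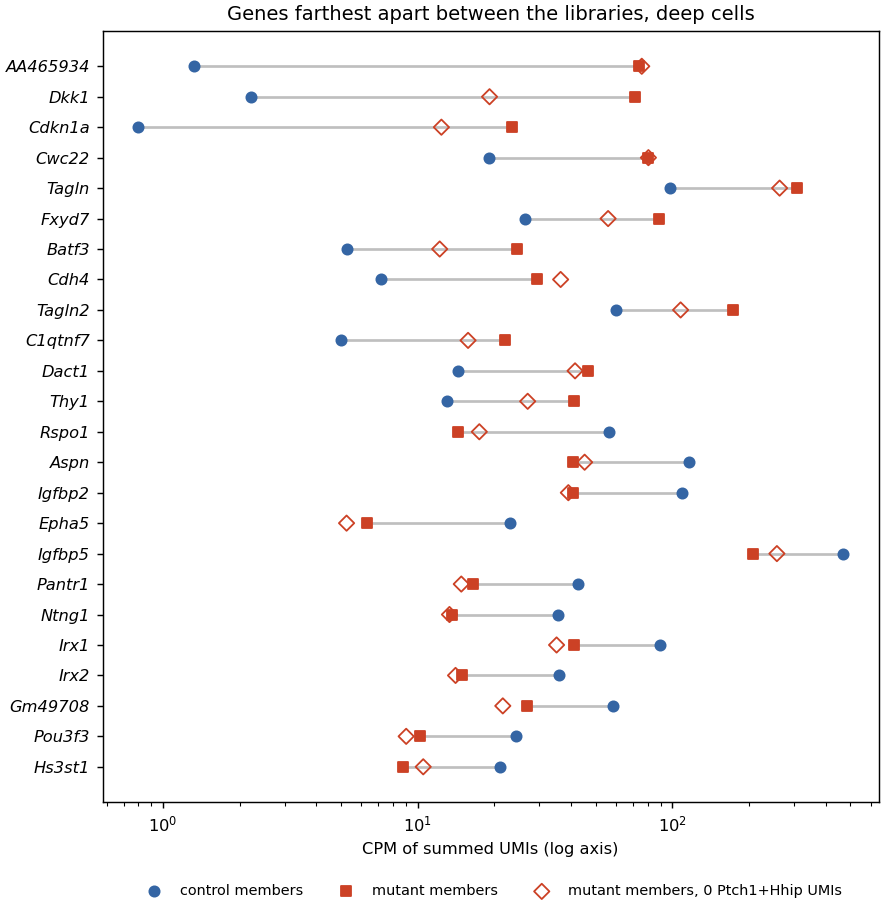
CPM (log axis) in deep cells of the 12 genes with the highest and the 12 with the lowest mutant to control ratio: circles are control members, filled squares mutant members, and open diamonds mutant members with 0 Ptch1 and Hhip UMIs. The diamonds of Dkk1, Cdkn1a, Batf3, Fxyd7, Tagln2 and Thy1 lie nearer to the control value than the squares, and that of Cdh4 lies farther.

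Genes of the cell cycle lay on 1 side of the comparison. All 20 G2 and M phase genes and all 18 measured S phase genes had a ratio above 1, with median log2 ratios of 0.35 and 0.42 beside 0.04 over all genes. Only Rrm2 (52.6 and 84.0 CPM) and Uhrf1 (33.6 and 55.6 CPM), both S phase genes, were past the threshold. Mki67 stood at 78.7 and 118 CPM. After thinning, 32.6% (31.0 to 34.3) of control and 52.2% (49.4 to 55.0) of mutant members held at least 2 UMIs of the G2 and M list. Before thinning these were 48.2% and 62.1%. The thinned share was 48.6% (45.3 to 51.9) in mutant members with 0 Ptch1 and Hhip UMIs and 70.4% (66.6 to 73.9) in mutant cells above the limit. In Crabp1-high cells the median of the G2 and M list was −0.24, 0 of 20 genes were above a ratio of 1, and the thinned shares were 59.7% and 62.0%.

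Few stress and arrest genes were past the threshold. Cdkn1a, which encodes the p53-induced cell cycle inhibitor p21, stood at 0.796 CPM in control and 23.4 CPM in mutant members, a ratio of 29.4 (18.1 to 50.7), and at 12.4 CPM at 0 UMIs, a ratio of 14.8 (8.70 to 26.6) but under the level for a call. In Crabp1-high cells it went from 11.2 to 192 CPM. A Cdkn1a UMI was found in 4.71% of thinned mutant members and in 1.75% of thinned mutant epidermal cells. Of 10 measured immediate early genes Egr1 (87.3 and 136 CPM) and Ier2 (129 and 250 CPM) were higher and Ier3 (45.2 and 28.4 CPM) was lower, the last being within the threshold at 0 UMIs (31.9 CPM). Of the 10, 8 had a ratio above 1, with a median log2 ratio of 0.35. These genes also respond to dissociation, and their part in the other differences was not tested. Ldha and Slc2a1, a lactate dehydrogenase and a glucose transporter, were higher at 362 and 560 CPM and at 17.3 and 29.1 CPM, 2 of 10 measured glycolysis and oxygen response genes, of which 7 had a ratio above 1 (median log2 ratio 0.42).

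Some differences had like values in other cell types. AA465934, a noncoding transcript on chromosome 11 (83291699 to 83294632), had the highest ratio, at 1.33 CPM in control and 74.1 CPM in mutant members. It stood at 2.28 and 72.1 CPM in epidermal cells, at 1.11 and 60.9 CPM in muscle cells and at 0.794 and 61.7 CPM in leukocytes. Cwc22, a splicing factor with near-identical copies in some mouse strains and so of uncertain counts, stood at 19.1 and 80.3 CPM in members, 24.4 and 103 CPM in epidermal cells and 22.8 and 94.1 CPM in muscle cells. Hbb-bs, an adult beta globin, stood at 72.4 and 550 CPM in members and 70.0 and 536 CPM in Crabp1-high cells. The remaining named genes higher in mutant members were Fxyd7, an ion transport regulator (26.4 and 88.3 CPM), Batf3 (5.26 and 24.6 CPM), C1qtnf7 (4.995 and 21.9 CPM) and Thy1 (13.04 and 41.2 CPM), and the remaining lower one was the noncoding transcript Gm49708 (58.6 and 26.8 CPM). Of these, Fxyd7 stood at 55.9 CPM, Batf3 at 12.2 CPM and Thy1 at 27.0 CPM in mutant members with 0 UMIs.

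Lists taken from earlier results on the whole dermis of these libraries are no independent evidence here. Of 14 genes earlier found higher in mutant dermis, 8 were measured in members, 7 were higher and 0 lower. Of 15 earlier found lower, 4 were measured and Rspo1, Igfbp5 and Irx5 were lower.

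Other signalling lists held few members past the threshold between the libraries. Of 11 measured genes of the bone morphogenetic protein and TGF-beta list, Fst, which encodes the activin antagonist follistatin, was higher at 11.6 and 33.0 CPM, and Tgfb2 was lower at 33.6 and 20.6 CPM. The ligand Tgfb2 was within the threshold in mutant members with 0 UMIs, at 22.7 CPM. Of 4 measured chemokine genes Ccl2, a monocyte attractant, was higher at 13.7 and 27.6 CPM. Of 17 measured guidance genes Robo2, a receptor for Slit proteins, was lower at 26.1 and 14.5 CPM and within the threshold at 0 UMIs, at 16.3 CPM. Of the guidance list 4 of 17 had a ratio above 1, with a median log2 ratio of −0.22. None of 7 fibroblast growth factor, 3 platelet-derived growth factor, 5 retinoid and 4 Hedgehog transducer genes measured was past the threshold, with list medians of 0.08, −0.06, −0.27 and −0.14. None of the 6 measured Krüppel-like factor genes was past it either, with a median of 0.21 and Klf4 at 192 and 234 CPM.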

How the data were processed

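The deposited files hold raw UMI counts per gene and barcode, 1 matrix per library of 32286 features, made with Cell Ranger 5.0.1 on mm10, per the submitters' processing notes; other settings are not given in the sources used here. Libraries were 10x Genomics 3′ type, of cells stained with DAPI before sorting, per the labels' protocols. Both libraries had the same dissociation entry, 0.25% trypsin for 20 min at 37 °C. Genes matched GENCODE M21 (GRCm38) by identifier for 32158 features.

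Members, the 47 gene lists and the tests were chosen with earlier results of these data known. Quality limits, gate and rule are given above. UMIs were summed per class and library and scaled to CPM. Genes were named by rule: the 12 highest and 12 lowest ratios between libraries, the 12 and 12 farthest apart in both libraries between layers, the 6 and 6 above against within the Ptch1 and Hhip limit, and list members past the threshold or with a defining role. Ratios carry exact conditional binomial, levels exact Poisson and shares exact Clopper-Pearson intervals at 95%, for counting error only; PCR copies are merged by UMI, but cells of 1 library share its embryos. Scrublet in scanpy 1.11.5 called 586 and 261 doublets, of which 39 and 15 were members; they were kept in the main values. Python 3.11.15, numpy 2.4.6, scipy 1.17.1, pandas 2.3.3 and matplotlib 3.10.9 were used, and the ratio code was tested on simulated data.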

Additional observations from a re-analysis of the deposited data

Results flagged for a closer look

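Ddit4, a stress-induced inhibitor of mTOR signalling, moved opposite ways in the layers. Its log2 ratio of mutant over control was −0.67 in deep cells (41.3 and 24.03 CPM) and 0.77 in Crabp1-high cells (19.4 and 36.7 CPM). Igfbp3, an IGF binding protein, did the same, at −0.59 in deep cells (124 and 80.6 CPM) and 0.69 in Crabp1-high cells (46.0 and 77.3 CPM). Both genes were past 1.5-fold in opposite directions with counting intervals clear of a ratio of 1. In mutant members with 0 Ptch1 and Hhip UMIs, against control members with 0, both deep-cell differences were within the threshold, with Ddit4 at 27.01 and 41.7 CPM and Igfbp3 at 84.8 and 125 CPM. Each group had 1 library, and the difference between the layers was not tested.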

How the results depend on the processing

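No paired analysis was possible because each group had 1 library. Of the recomputed shares and counts 70 stayed within the interval of the share or within 1.5 times the count, and 32 moved. Of the values of named genes 680 stayed within the counting interval and 304 moved, and of list medians 475 stayed within the typical interval of their genes and 95 moved. No named gene past the threshold and no list median past it changed direction under any alternative run.

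The control share of members was 27.0% with Crabp1 below 0.02%, 46.7% below 0.1%, 34.5% with at least 6 UMIs of Dcn, Col14a1 and Abi3bp, 36.8% with 0 Ptch1 and Hhip UMIs, and 43.2% after thinning to 3000 UMIs. The mutant share was 23.0%, 38.9%, 26.8%, 24.2% and 48.1% in that order, and 46.6% without a Ptch1 and Hhip limit. For mutant against control members, 115 genes were higher and 84 lower of 5893 tested in the main run. The counts were 276 and 160 of 5942 without that limit, 205 and 172 of 10056 at 5 CPM, and 58 and 35 of 3007 at 50 CPM. They were 280 and 157 of 5975 in cells with no G2 and M UMI. In mutant members with 1 to 2 Ptch1 and Hhip UMIs, an alternative chosen after seeing the data, they were 382 and 373 of 5965. Thinning gave 195 higher genes of 6015. At 50 CPM the layers differed in 223 higher and 238 lower genes of 3095 in the control and 215 and 101 of 3059 in the mutant library. Above against within the limit the counts were 477 and 560 of 6107 for at least 5 against 0 UMIs. They were 678 and 586 of 6287 after thinning, and 134 and 191 of 3116 at 50 CPM. Fewer or more genes tested sets the counts at 5 and 50 CPM; for the others the cause was not tested. Depth limits genes of few UMIs: 3 UMIs correspond to 0.133 CPM in control and 0.396 CPM in mutant members.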
